A study of Mus musculus with 11 samples.

Results

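The vomeronasal receptor genes were examined in 11 chromatin immunoprecipitation sequencing (ChIP-Seq) libraries that map histone variants in mouse cells. The members are the protein-coding genes of chromosomes 1 to 19 whose symbol starts with Vmn1r or Vmn2r in the GENCODE annotation of the mm9 genome build. There are 327 of them, 203 Vmn1r and 124 Vmn2r, among 21418 autosomal protein-coding genes. The rule itself uses symbols and positions. Members under 200 kb apart were joined into 50 clusters, and the 500 kb on each side of a cluster served as its flanks.

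Embryonic stem (ES) cells were KH2 cells, labelled as strain 129 X C57bl/6 and grown on feeder fibroblasts that were removed on gelatin before the experiment. An HA-tagged H3.3 or HA-tagged MacroH2A2 cDNA sat downstream of Col1A1 under a tetracycline operator, and the transactivator M2rtTA was expressed from ROSA26, so that doxycycline (Dox) at 2 µg/mL started a pulse of tagged histone. HA-H3.3 ES cells were taken at 3 and 6 h of Dox. HA-MacroH2A2 ES cells (HA-Macro) were taken with no Dox and at 3, 6 and 12 h of Dox, and mouse embryonic fibroblasts (MEF) at 3, 6 and 12 h. These MEFs came from embryos chimeric for the HA-MacroH2A2 ES cells. Host cells were selected against with puromycin, whose resistance cassette lies at ROSA26 with M2rtTA. All 9 of these libraries used an antibody to the HA tag, so the no-Dox library shows what that antibody recovers without Dox. The study raises leaky expression of the tagged histone in these cells, so the library may not lack it altogether. The remaining 2 libraries used an antibody to MacroH2A2 itself, and their labels give parental KH2 ES cells and wild type MEFs without treatment and carry the note 2Reps, with 1 file each. The study's legends also describe such maps from HA-Macro cells with and without Dox, so the genotype and Dox state of the cells pooled in these files are not settled. Each condition is 1 library, so there is no spread between replicates and no test across samples. The intervals in brackets or introduced as 95% cover counting error only. Neither cell type is a vomeronasal neuron, and no expression values were used to check the labelled cell types.

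Vomeronasal receptors are G protein-coupled receptors of the sensory neurons of the vomeronasal organ, which detects pheromones and other social and predator cues. Vmn1r receptors are used by neurons that signal through Gnai2 and have a short extracellular end and a coding sequence that is usually a single exon. Vmn2r receptors are used by neurons that signal through Gnao1 and have a long extracellular domain encoded by several exons. A mature neuron expresses 1 allele of 1 or a few of these genes, and in other tissues the receptor genes are largely silent. MacroH2A is a histone variant with a large non-histone domain that is often found in silent chromatin, while H3.3 is deposited outside of DNA replication at transcribed genes and regulatory elements.

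Both families lie in tandem arrays of close relatives, so a short read often cannot be placed in them at 1 position. Of the 32-base words in the clusters, 48.6% occur a single time in the genome (chromosomes 1 to 19, X and Y, both strands), against 65.8% in the flanks and 84.6% over the autosomes. Among the members, 30 (26 Vmn1r and 4 Vmn2r) hold no such word in their gene body, and 11 Vmn1r genes consist of such words alone. The first 90 coding bases of 7 members are shown because they span this range. They are written 5′ to 3′ on the coding strand from the mm9 genome, with a base in capitals where it begins a 32-base word that occurs once.
Vmn1r107: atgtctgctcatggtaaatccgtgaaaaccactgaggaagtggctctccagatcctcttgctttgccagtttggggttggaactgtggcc
Vmn1r110: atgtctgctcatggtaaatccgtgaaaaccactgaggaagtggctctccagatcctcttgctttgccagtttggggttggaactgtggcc
Vmn1r95: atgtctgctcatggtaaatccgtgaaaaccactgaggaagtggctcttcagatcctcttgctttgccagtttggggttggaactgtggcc
Vmn1r89: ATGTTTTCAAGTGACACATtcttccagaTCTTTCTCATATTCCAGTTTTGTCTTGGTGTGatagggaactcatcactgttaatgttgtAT
Vmn1r85: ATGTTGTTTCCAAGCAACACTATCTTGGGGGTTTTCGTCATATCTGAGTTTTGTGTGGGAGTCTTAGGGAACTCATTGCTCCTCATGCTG
Vmn2r116: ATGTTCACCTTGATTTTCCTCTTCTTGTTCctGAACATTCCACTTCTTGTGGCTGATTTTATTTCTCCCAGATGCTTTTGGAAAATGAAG
Vmn2r1: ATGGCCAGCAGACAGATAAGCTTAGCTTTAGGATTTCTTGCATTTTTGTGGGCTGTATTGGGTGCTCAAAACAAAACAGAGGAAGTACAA
Vmn1r107 (chr7:21254267-21254356, plus strand) and Vmn1r110 (chr7:21453936-21454025, plus strand) are identical over these bases and share them with Vmn1r130, Vmn1r137, Vmn1r155 and Vmn1r165. Vmn1r95 (chr7:20779059-20779148, plus strand) differs from Vmn1r107 by C48T, counted from the first base of the start codon, and none of the 3 stretches has a capital. Among 141 single-exon Vmn1r genes whose model begins at a start codon, 41 fall into 15 groups that share their first 90 bases, and 12 share their whole sequence with another member. Vmn1r89 (chr7:13804688-13804777, plus strand) has 53 of 90 bases in capitals. Vmn1r85 (chr7:13670475-13670564, minus strand) and Vmn2r1 (chr3:63885564-63885653, plus strand) have 90 of 90, and Vmn2r116 (chr17:23521770-23521859, plus strand) has 88 of 90.

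The density of intervals at this repeated sequence differed between 2 sets of libraries. The deposited values are genomic intervals, each standing for an aligned read extended to a fixed length, with no count and no strand. Identical intervals were counted a single time, and the normalised density is the number of interval midpoints per Mb of sequence per 1000000 distinct intervals in the library. Where both ends of an interval (its first and last 32 bases) occur elsewhere in the genome, the normalised density in the clusters was 14.1, 11.3, 13.1 and 11.7 in the HA-H3.3 3 h, HA-H3.3 6 h, anti-MacroH2A2 ES and anti-MacroH2A2 MEF libraries. Where both ends occur once, it was 367, 275, 374.5 and 339 in the same 4 libraries. The repeated positions thus had 0.0385, 0.0411, 0.0351 and 0.0345 times the density of the single-occurrence positions. In the 7 HA-Macro libraries the same ratio lay between 0.843 (no Dox) and 1.14 (MEF 12 h). Intervals were also 400 bp long in the 4 former libraries and 150 bp in the 7 latter. The plot of density by end class shows the 2 sets apart in clusters and flanks alike.

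**Figure D1:**
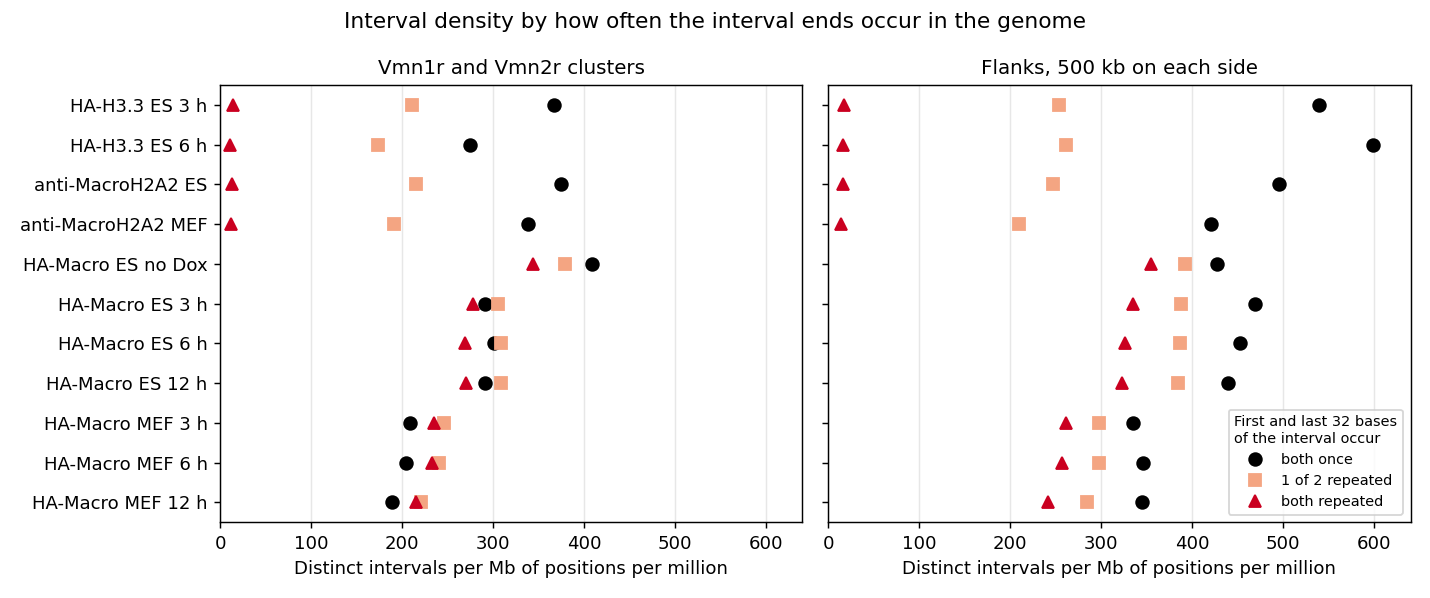
Normalised density, distinct intervals per Mb of positions per 1000000 in the library (x axis), in the clusters (left) and their flanks (right) for each of the 11 libraries (y axis), split by whether the first and last 32 bases of an interval occur once in the genome. Positions with both ends repeated sit near 0 in the libraries for HA-H3.3 and anti-MacroH2A2 (11.3 to 17.4) and between 216 and 355 in the HA-Macro libraries.

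Single genes show what this difference does to a count. Counts of single genes, here and below, are not scaled to depth. Depth ran from 6448310 (HA-H3.3 ES 3 h) to 19869559 distinct intervals (HA-Macro MEF 12 h). The lists of highest and lowest members that follow were set by the mean body density over the 11 libraries and are a description. Since 4 of the libraries hold few intervals at repeated positions, this order puts members in repeated sequence low and those in single-occurrence sequence high. The lowest Vmn1r members were Vmn1r143, Vmn1r110 and Vmn1r95, all on chromosome 7, each with 0 body intervals in the libraries for HA-H3.3 and anti-MacroH2A2. A count of 0 allows up to 3 intervals, as a one-sided 95% limit. In the HA-Macro libraries (ES no Dox, 3, 6 and 12 h, then MEF 3, 6 and 12 h) Vmn1r110 had 1, 3, 2, 5, 1, 2 and 1. The lowest Vmn2r members were Vmn2r36, Vmn2r40 and Vmn2r21, in which the share of body words that occur once was 0%, 2.59% and 0.499%. Vmn2r36 (chr7:7829362-7855173) had 0 intervals in the 4 former libraries and 95, 93, 74, 87, 65, 50 and 82 in the HA-Macro libraries. Members with no body interval numbered 90, 80, 66 and 58 of 327 in the HA-H3.3 3 h, HA-H3.3 6 h, anti-MacroH2A2 ES and anti-MacroH2A2 MEF libraries. In the HA-Macro ES libraries they numbered 3 (no Dox), 2 (3 h), 1 (6 h) and 0 (12 h), and in MEFs 21, 22 and 2. These MEF libraries held 10810879, 10512728 and 19869559 distinct intervals, and the median Vmn1r body count in them was 2, 3 and 5. The share of other genes with no body interval was not set beside these counts, and no difference between cell types is read from them. No member was at 0 in all 11 libraries.

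The same split held for whole arrays of near-identical genes on chromosome 7. Over Vmn1r100 to Vmn1r132 (chr7:21003291-22400004, 28 genes, 3.75% of words occurring once), the log2 ratio of cluster to flank density was -3.60, -4.81, -3.29 and -3.53 in the HA-H3.3 3 h, HA-H3.3 6 h, anti-MacroH2A2 ES and anti-MacroH2A2 MEF libraries. In the HA-Macro libraries it lay between -0.19 (no Dox) and -0.50 (ES 12 h). Vmn1r135 to Vmn1r143 (chr7:22617370-22975319) had 0, 1, 0 and 2 intervals in the former 4 libraries and 650 to 1323 in the HA-Macro libraries. No low or high level of either histone at these arrays can be read from the libraries for HA-H3.3 and anti-MacroH2A2. The study's methods give a random choice among several locations, so the HA-Macro values there do not tell copies of a repeated sequence apart. Comparisons between libraries were therefore made over positions where both ends occur once, 6.78 Mb of the clusters for 400 bp intervals and 6.96 Mb for 150 bp intervals.

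Over these positions the clusters held fewer intervals than their flanks in every library, and the no-Dox library showed the smallest difference. The clusters had a normalised density of 367 and 275 in the HA-H3.3 3 and 6 h libraries, against 539.8 and 599 in the flanks. For anti-MacroH2A2 they were at 374.5 (ES) and 339 (MEF), against 495 and 421. The HA-Macro ES libraries had 408 (no Dox), 291 (3 h), 301 (6 h) and 291 (12 h) in the clusters, against 427, 469, 453 and 439. The HA-Macro MEF libraries had 208, 205 and 189 at 3, 6 and 12 h, against 335, 346 and 344. The HA-Macro MEF libraries were thus the lowest of all in the clusters, and their flanks were also below the autosomal level of 411 to 417, whereas the flanks in induced ES cells were above theirs (411 to 415).

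On the log2 scale the ratio of clusters to flanks was -0.56 (95% interval -0.58 to -0.53) in HA-H3.3 ES 3 h and -1.13 (-1.15 to -1.10) at 6 h. It was -0.40 (-0.42 to -0.38) for anti-MacroH2A2 in ES cells and -0.31 (-0.33 to -0.30) in MEFs. The no-Dox library had -0.07 (-0.08 to -0.05), and the induced HA-Macro ES libraries had -0.69, -0.59 and -0.59 at 3, 6 and 12 h. In HA-Macro MEFs the ratio was -0.69, -0.76 and -0.87. Over all positions, repeated ones included, the ratios were -0.91, -1.42, -0.77 and -0.69 in the libraries for HA-H3.3 and anti-MacroH2A2, -0.10 with no Dox, -0.54, -0.50 and -0.48 in HA-Macro ES cells, and -0.45, -0.49 and -0.58 in HA-Macro MEFs. With repeated positions included, the difference was thus deeper in the 4 libraries that nearly lack them and shallower in the 6 induced HA-Macro libraries. With the 5 kb on either side of annotated gene starts left out, a choice made after seeing the data, the ratios were -0.43 and -0.89 for HA-H3.3, -0.34 and -0.30 for anti-MacroH2A2, -0.08 with no Dox, -0.59 to -0.52 in HA-Macro ES cells and -0.83 to -0.65 in HA-Macro MEFs.

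**Figure D2:**
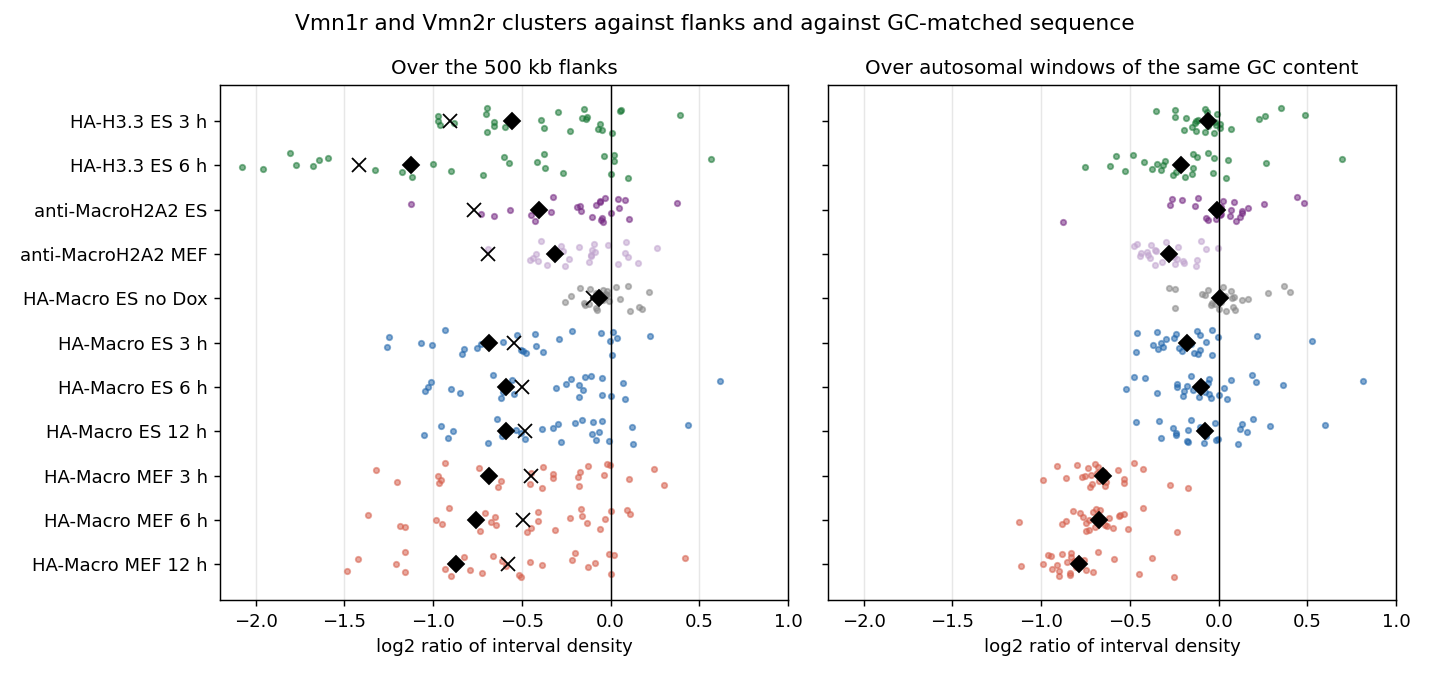
Log2 ratio of interval density (x axis) for each library (y axis), against the flanks (left) and against autosomal windows of the same GC content (right). Small points are the 25 clusters measured at positions with both ends occurring once, diamonds all 50 clusters pooled over those positions, and crosses all 50 pooled over every position. Against GC-matched sequence the HA-Macro MEF points lie between -1.12 and -0.17 while the HA-Macro ES points lie on both sides of 0.

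The clusters were then taken one by one. Of the 33 clusters of 100 kb or more, 25 (holding 223 members) had enough single-occurrence sequence to be measured one by one, at least 30 kb in the cluster and 100 kb in its flanks. A cluster was counted as low where its density was under 0.8 of that of its flanks, and the same count over 23071 autosomal 100 kb tiles outside the clusters gives the background. In HA-H3.3 ES cells 12 of 25 clusters were low at 3 h, against 9.06% of tiles, and 18 at 6 h, against 29.4%. For anti-MacroH2A2, 8 were low in ES cells (6.08% of tiles) and 7 in MEFs (14.2%). None was low in the no-Dox library (0.485%). The induced HA-Macro ES libraries had 17 (17.9%) and 11 (10.9%) low clusters at 3 and 6 h, and the count at 12 h is not reported here. The medians in these ES cells were -0.49, -0.25 and -0.29 at 3, 6 and 12 h. The HA-Macro MEF libraries had 15 (24.6%), 15 (23.3%) and 17 (25.0%) low clusters. The median over clusters was above the pooled value in all 11 libraries and was -0.08 and -0.12 for anti-MacroH2A2 in ES cells and MEFs. Long clusters weigh more in the pooled values, and the pooled flanks include those of clusters under 100 kb. With each cluster set against its own flanks, the value was -0.21 and -0.16 for anti-MacroH2A2 in ES cells and MEFs.

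The spread ran from clusters far below their flanks to clusters above them, of which there were 3 to 7 of 25 in each library. Vmn2r84 to Vmn2r87 (chr10:129822372-129934435, 4 genes) was above its flanks in all 11 libraries, by 0.39 and 0.57 in HA-H3.3 3 and 6 h, 0.38 and 0.26 in anti-MacroH2A2 ES and MEF, 0.22 with no Dox, 0.22, 0.62 and 0.43 in HA-Macro ES cells, and 0.25, 0.11 and 0.42 in HA-Macro MEFs. The no-Dox value is close to several of these. This cluster had 33.8 kb of single-occurrence positions for 400 bp intervals. Its HA-Macro MEF 3 and 6 h values rest on 96 and 86 intervals in the cluster. Of the 16 protein-coding starts in its flanks, 13 were of olfactory receptor genes. Vmn2r53 to Vmn2r56 (chr7:13166819-13318454) had the lowest ratio of all in HA-H3.3 at 6 h, -2.08, and -0.11 in anti-MacroH2A2 MEF. Against the GC expectation described below, it was at -0.75 and -0.44 in these libraries. Vmn2r80 to Vmn2r83 (chr10:78611542-78954899) was the lowest for anti-MacroH2A2 in both cell types, at -1.13 and -0.69, with -0.08 in the no-Dox library. Against the GC expectation, the same cluster was at 0.26 and -0.07 for anti-MacroH2A2 in ES cells and MEFs, so in ES cells its direction turned. The no-Dox library was at 0.28 there. Vmn1r40 to Vmn1r54 (chr6:89664197-90220047) was the lowest in HA-Macro MEF 12 h, at -1.48, with -0.92 in HA-Macro ES 12 h. Against the GC expectation it was at -0.90 and -0.32, and Vmn2r53 to Vmn2r56 was lower in HA-Macro MEF 12 h, at -1.12. At the other end of the heat map, Vmn2r99 to Vmn2r103 (chr17:19499099-19949500) stayed between -0.17 and 0.09 against its flanks in all 11 libraries, and against the GC expectation it was at -0.26 and -0.46 for anti-MacroH2A2 in ES cells and MEFs and at -0.28 with no Dox.

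**Figure D3:**
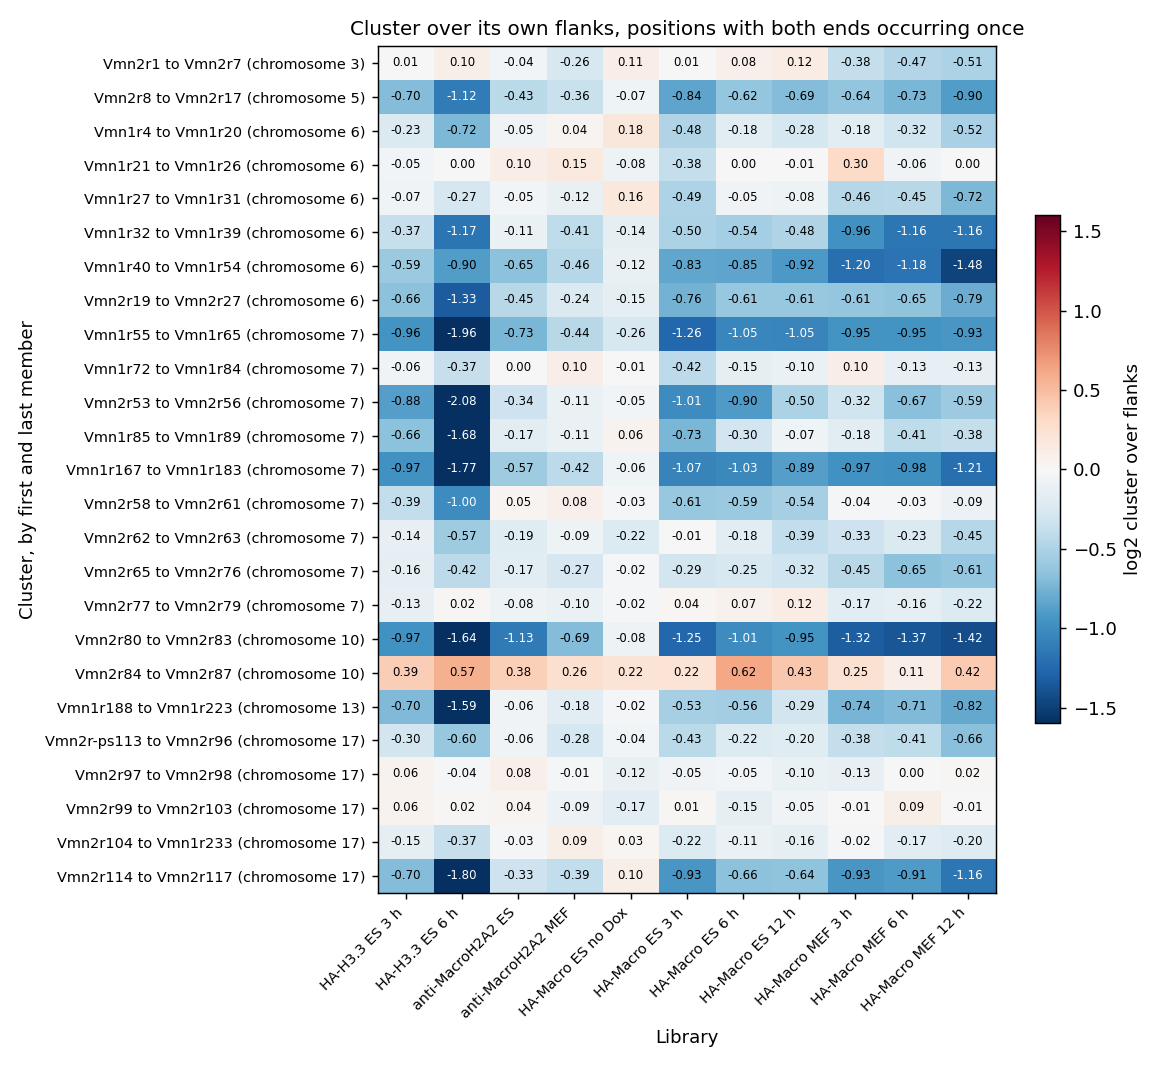
Log2 ratio of the density in a cluster to that in its own flanks (colour and printed number) for the 25 measured clusters (rows, in genome order) in the 11 libraries (columns), at positions with both ends occurring once. The column of the no-Dox library stays between -0.26 and 0.22, while HA-H3.3 ES 6 h reaches -2.08.

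These clusters also differ from their flanks in base composition, which moves with the ratio. GC content was 39.0% in the clusters, 41.8% in the flanks and 41.9% over the autosomes. Across the 25 clusters the correlation (Pearson's r, a description over points that share libraries) between the cluster-to-flank ratio and the GC difference was 0.74 and 0.63 in the HA-H3.3 libraries and 0.86 and 0.68 in the anti-MacroH2A2 libraries. It was 0.23 with no Dox and between 0.74 and 0.85 in the induced HA-Macro libraries. By rank (Spearman) it was 0.69 and 0.62 for HA-H3.3, 0.60 and 0.49 for anti-MacroH2A2 and 0.15 with no Dox. In the induced HA-Macro libraries it lay between 0.56 (MEF 3 h) and 0.80 (ES 3 h) by rank. With the number of protein-coding gene starts per kb of flank, r was negative, from -0.68 (HA-H3.3 3 h) to -0.07 (no Dox). By rank these values ran from -0.74 (HA-H3.3 3 h) to 0.06 (no Dox). The flanks held 594 protein-coding starts, 64 of them of zinc finger genes named Zfp, 50 of olfactory receptor genes and 46 of histone genes. The part of base composition and of neighbouring genes in these ratios was not tested.

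A reference of the same base composition was then used in place of the flanks, combined with single-occurrence positions after seeing the data. Each 10 kb of cluster was compared with autosomal 10 kb windows of the same GC percent outside the clusters. On this scale the lowest values were in HA-Macro MEFs. The log2 ratio was -0.06 (-0.08 to -0.04) and -0.21 (-0.23 to -0.19) in HA-H3.3 ES 3 and 6 h. It was -0.01 (-0.03 to 0.01) for anti-MacroH2A2 in ES cells and -0.28 (-0.30 to -0.27) in MEFs. HA-Macro ES libraries had 0.01 with no Dox, then -0.18, -0.10 and -0.08 at 3, 6 and 12 h, and HA-Macro MEF libraries had -0.65, -0.67 and -0.79. The flanks themselves were at -0.32, -0.28 and -0.30 in HA-Macro MEFs and at 0.15, 0.11 and 0.07 in induced HA-Macro ES cells.

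Counted by cluster, 23, 24 and 24 of 25 were under 0.8 of their GC expectation in HA-Macro MEF 3, 6 and 12 h, against 34.7%, 33.3% and 35.9% of tiles. In induced HA-Macro ES cells 6, 4 and 3 were, against 26.6%, 14.7% and 10.0%. For anti-MacroH2A2 the count was 1 in ES cells (2.63%) and 11 in MEFs (17.7%), for HA-H3.3 it was 1 at 3 h (11.9%) and 9 at 6 h (37.1%), and with no Dox it was 0 (1.02%). The shares in ES cells thus lay near or below the background, and those in MEFs above it. Vmn2r84 to Vmn2r87, above its expectation in every ES library (0.21 to 0.81, 0.40 with no Dox), was below it in the HA-Macro MEF libraries (-0.43, -0.53 and -0.38) and at -0.00 in anti-MacroH2A2 MEF.

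The difference between cell types depended on the reference. Against the flanks, HA-Macro MEF minus HA-Macro ES was 0.00, -0.17 and -0.28 at 3, 6 and 12 h on the log2 scale, and anti-MacroH2A2 MEF minus ES was 0.09 (0.06 to 0.12), the opposite sign to the GC-matched difference of -0.27. The HA-Macro difference at 12 h was -0.09 over all positions, and -0.017 there with flanks of 200 kb. Against the GC expectation, the ratio in MEFs was under 0.8 of that in ES cells in 22 (3 h), 21 (6 h) and 24 (12 h) of 25 clusters for HA-Macro, where 30.5%, 32.7% and 34.2% of tiles were. For anti-MacroH2A2 it was so in 12 of 25, where 16.2% of tiles were. Without the chromosome 3 cluster described below, the anti-MacroH2A2 values against the GC expectation were 0.02 in ES cells and -0.29 in MEFs. Cell type, passage and library cannot be told apart here, since each cell type has 1 library for each antibody and time.

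The size of the differences between times also depended on the reference. From 3 to 12 h of Dox the log2 ratio of clusters to flanks was 0.10 higher in HA-Macro ES cells (0.07 to 0.12). The size moved with the setting, to 0.06 over all positions, 0.055 with starts left out and 0.18 as the median over clusters. Between 6 and 12 h the difference was -0.00 (-0.02 to 0.02). In HA-Macro MEFs the 12 h ratio minus the 3 h ratio was -0.18 (-0.21 to -0.15). The 12 h ratio was under 0.8 of the 3 h ratio in 1 of 25 clusters, against 1.02% of tiles. In HA-H3.3 ES cells the 6 h ratio minus the 3 h ratio was -0.57 (-0.60 to -0.54) and the 6 h ratio was under 0.8 of the 3 h ratio in 13 of 25 clusters, against 19.6% of tiles. Against the GC expectation the HA-H3.3 difference was -0.15, beside -0.14 for HA-Macro MEF 12 h minus 3 h and 0.10 for HA-Macro ES 12 h minus 3 h.

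The low density began outside the outermost genes. In the 11 measured clusters of 500 kb or more, 50 kb bins were aligned at both edges and set against the mean of the flank bins. HA-H3.3 ES 6 h was already at -0.74 in the first bin outside and lay between -1.19 and -1.07 in the 5 bins inside. HA-Macro MEF 12 h was at -0.57 in the first bin outside and between -0.92 and -0.87 inside. The no-Dox library stayed between -0.12 and -0.01 inside.

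**Figure D4:**
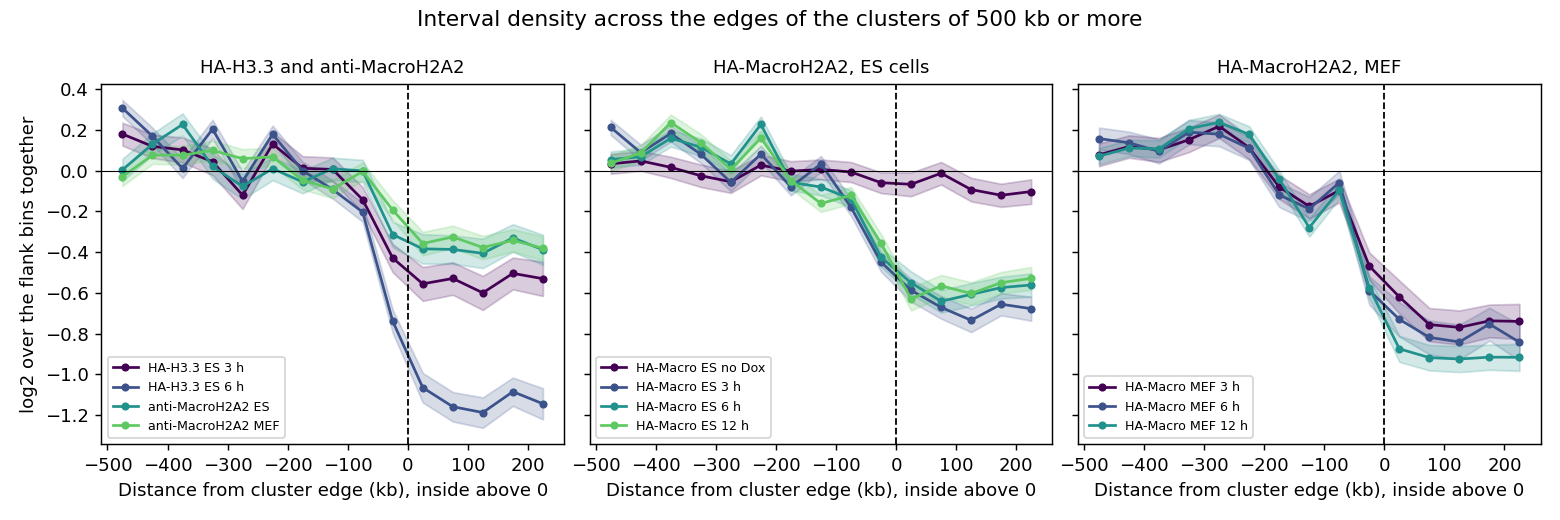
Log2 density over the flank bins together (y axis) in 50 kb bins by distance from a cluster edge (x axis, inside above 0), pooled over both edges of the 11 measured clusters of 500 kb or more, with 95% counting intervals as bands. HA-Macro ES 12 h falls to -0.36 in the first bin outside the edge and to -0.63 in the first inside, while the no-Dox library stays between -0.12 and -0.01 inside.

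The difference between the 2 receptor families depended on the reference. For clusters holding a single family, the Vmn1r ratio to flanks minus the Vmn2r ratio was -0.06 and -0.22 in the HA-H3.3 libraries, 0.10 and 0.04 in the anti-MacroH2A2 libraries, -0.02 with no Dox, -0.09, -0.10 and -0.03 in HA-Macro ES cells and -0.17, -0.16 and -0.19 in HA-Macro MEFs. The 95% interval was -0.27 to -0.17 in HA-H3.3 ES 6 h and -0.24 to -0.15 in HA-Macro MEF 12 h, and it held 0 in anti-MacroH2A2 MEF, in the no-Dox library and in HA-Macro ES 12 h. Over all positions the difference lay between -0.70 (HA-H3.3 6 h) and -0.17 (no Dox). Against the GC expectation the families lay closer together in HA-H3.3 ES 6 h and in HA-Macro MEFs, with Vmn1r at -0.21 and Vmn2r at -0.17 in HA-H3.3 ES 6 h, -0.63 and -0.61 in HA-Macro MEF 3 h, and -0.82 and -0.73 in HA-Macro MEF 12 h. For anti-MacroH2A2 they were at 0.07 and -0.03 in ES cells and at -0.23 and -0.30 in MEFs. Olfactory receptor genes (Olfr), the other large family of chemoreceptors, served as the closest likeness. Their clusters, 38.8% GC, were at -0.51, -1.07, -0.39, -0.33, 0.01, -0.70, -0.55, -0.56, -0.75, -0.79 and -0.88 against their flanks in the order of the libraries from HA-H3.3 3 h to HA-Macro MEF 12 h. In direct density the log2 ratio of vomeronasal to Olfr clusters was between -0.12 (HA-Macro 12 h) and -0.07 (no Dox) in ES cells, -0.10 in anti-MacroH2A2 MEFs and -0.17, -0.17 and -0.22 in HA-Macro MEFs. Against the GC expectation the Olfr clusters were also low in HA-Macro MEFs (-0.51, -0.53 and -0.60) and near it in anti-MacroH2A2 ES cells (0.07), so the pattern was shared by both kinds of receptor.

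At their annotated starts the members had lower values than other genes, by an amount that differed between libraries. The models of 239 of 327 members begin at the start codon, so transcription may begin elsewhere. GC content was 36.8% within 600 bp of member starts and 54.3% at the promoters of other genes. The part of annotation and of base composition in the difference was not tested. Within 600 bp of annotated starts, single-occurrence density over that 2 to 4 kb away was 0.16 and 0.25 (log2) at Vmn starts in HA-H3.3 ES 3 and 6 h, against 1.17 and 1.47 at other protein-coding genes. It was 0.03 against 0.91 for anti-MacroH2A2 in ES cells and 0.09 against 0.36 in MEFs. In the no-Dox library the Vmn value was 0.23 and that of other genes 0.33, and the Vmn value in the induced HA-Macro libraries was 0.05 to 0.14. Other genes were at 0.69, 0.46 and 0.21 in HA-Macro ES 3, 6 and 12 h and at 0.33, 0.29 and 0.15 in MEFs, so in MEFs and at 12 h in ES cells their own peak was small. Against the rest of the clusters, member promoters were at 0.12 for anti-MacroH2A2 ES (0.01 to 0.24) and 0.39 over all positions, and at 0.31 (0.22 to 0.40) with no Dox.

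**Figure D5:**
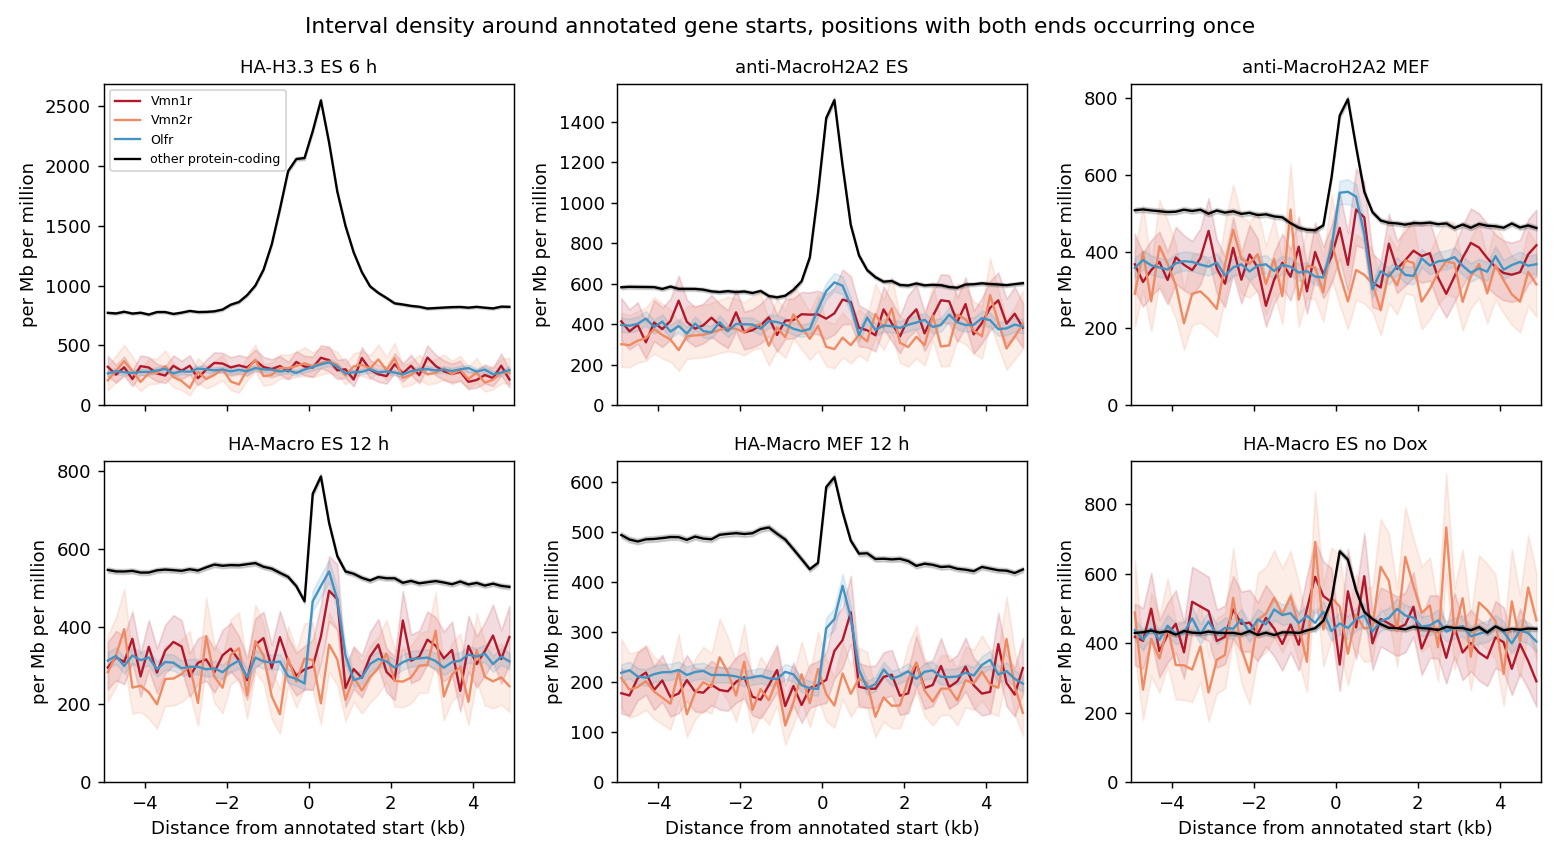
Normalised density, distinct intervals per Mb per 1000000 in the library (y axis, a scale of its own in each panel) by distance from annotated starts (x axis, kb, the gene body above 0) for Vmn1r, Vmn2r, Olfr and other protein-coding genes in 6 of the libraries, with 95% counting intervals as bands. At the start the curve of other genes rises far more than the vomeronasal curves in HA-H3.3 ES 6 h. A small rise lies inside the Vmn1r and Olfr genes in the HA-Macro 12 h libraries.

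Density was higher inside Vmn1r genes than beside them in several libraries. The models of 142 of 203 Vmn1r genes begin at the start codon, so the window used need not be coding in all. In the window from 400 to 800 bp after the start, chosen after the profiles were seen, Vmn1r genes had a normalised density of 482 in HA-Macro ES 12 h, against 322 at 2 to 4 kb, a log2 ratio of 0.58 (0.39 to 0.77). HA-Macro MEF 12 h had 311 against 195, a ratio of 0.68 (0.45 to 0.89). The other libraries lay between -0.05 (HA-Macro MEF 6 h) and 0.42 (anti-MacroH2A2 MEF), and the no-Dox library was at 0.27 (0.04 to 0.48). The interval held 0 in HA-H3.3 3 h (-0.17 to 0.48), HA-H3.3 6 h (-0.15 to 0.42) and HA-Macro MEF 6 h (-0.43 to 0.30). The window was 41.7% GC and its surroundings 38.9%. In Vmn2r genes, whose coding sequence is split over several exons, the ratio lay between -0.31 and 0.41 and the window was at 34.4% GC against 36.9%. Olfr genes, which also have their coding sequence in a single exon, were at 0.73 and 0.74 in the 12 h ES and MEF libraries with 44.0% against 37.5% GC. Whether base composition has a part in these ratios was not tested.

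The clusters also held 45 protein-coding genes with other symbols, many of which have no single-occurrence position in their promoter. They include V1ra8, V1rd19 and V1rh19, which the symbol rule left out, and the vomeronasal genes Fpr-rs3, Fpr-rs6 and Fpr-rs7. Among the 45, Clcn4-2 and Ppp2r1a were named after their values were seen, and are given by their counts at single-occurrence positions. Clcn4-2, a chloride and proton exchanger, had 31, 92, 53, 27, 19, 44, 52, 56, 31, 29 and 47 promoter intervals in the order of the libraries from HA-H3.3 3 h to HA-Macro MEF 12 h. Ppp2r1a, a scaffold subunit of protein phosphatase 2A, had 12, 46, 8, 4, 3, 15, 12, 6, 8, 2 and 4. The counts of both genes are not scaled to depth.

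Counts at the receptors with known ligands named here ranged from 0 to 116. Vmn2r116 (chr17:23521770-23538831), the receptor of the male tear peptide ESP1, had 46 and 44 body intervals in HA-H3.3 3 and 6 h and 49 and 56 in anti-MacroH2A2 ES and MEF. It had 97, 101, 116 and 99 in HA-Macro ES cells (no Dox, 3, 6 and 12 h) and 53, 52 and 73 in HA-Macro MEFs. Vmn1r85 (chr7:13669638-13670564) and Vmn1r89 (chr7:13804688-13805638), receptors for sulfated steroids, lie in the same cluster. Vmn1r85 had 2, 6, 5 and 4 intervals in the libraries for HA-H3.3 and anti-MacroH2A2, 6, 8, 11 and 10 in HA-Macro ES cells and 6, 2 and 0 in MEFs. Vmn1r89 had 4, 6, 4 and 5, then 10, 8, 4 and 8, then 3, 4 and 7. Counts this small cannot show a difference between libraries for a single Vmn1r gene. The counts are not scaled to depth, which was 6448310 and 10646442 distinct intervals in HA-H3.3 3 and 6 h. Depth was 8504276 and 14827620 in anti-MacroH2A2 ES and MEF, so equal counts there do not stand for equal densities.

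Vmn1r1 (chr1:184087275-184088450), the only member on chromosome 1, had the highest mean body density of the Vmn1r members and has 48.2% GC and 97.2% of words occurring once. It had 8, 18, 7 and 6 intervals in the libraries for HA-H3.3 and anti-MacroH2A2, 4, 14, 14 and 14 in HA-Macro ES cells and 18, 2 and 14 in MEFs. The next were Vmn1r235 and Vmn1r194, with 100% and 97.5% of words occurring once. Among Vmn2r genes the highest were Vmn2r88, Vmn2r85 and Vmn2r89. Vmn2r85 (chr10:129854828-129866668), in the cluster that was above its flanks in every library, had 32 and 89 intervals in HA-H3.3 3 and 6 h, 29 and 54 in anti-MacroH2A2 ES and MEF, 83, 92, 131 and 135 in HA-Macro ES cells and 36, 32 and 60 in MEFs. These counts too are not scaled to depth.

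Vmn2r1 to Vmn2r7, the family C receptors that are expressed broadly among basal vomeronasal neurons together with another Vmn2r receptor, form 1 cluster on chromosome 3 (chr3:63885564-64648687), and 1 library stands apart there. In the anti-MacroH2A2 ES library, 14 consecutive 1 Mb bins (chr3:57000001-71000000) were lower than the median of the other 6 ES libraries by log2 values of -1.04 to -0.72, where the other bins examined lay between -0.27 and 0.31. Density over this stretch was 0.505 times that of the neighbouring bins in this library and 0.879 to 1.04 times in the other 10. The normalised density of the cluster was 207 in the anti-MacroH2A2 ES library and 282 to 408 in the others. Cluster and flanks share the stretch, so the ratio to flanks there was -0.04, while the ratio to the GC expectation was -0.88. What set this stretch apart in 1 library was not tested, and no low MacroH2A2 over the family C genes is read from it.

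Outside that library the family C cluster was close to its flanks in ES cells and below them in MEFs. The log2 ratio to flanks was 0.01 and 0.10 in HA-H3.3 ES 3 and 6 h and 0.11, 0.01, 0.08 and 0.12 in HA-Macro ES cells (no Dox, 3, 6 and 12 h). In HA-Macro MEFs it was -0.38, -0.47 and -0.51, and in anti-MacroH2A2 MEFs -0.26. Against the GC expectation it was the least reduced of the 25 clusters in HA-Macro MEFs, at -0.17, -0.23 and -0.25. Vmn2r1 itself had 62, 49, 39 and 132 body intervals in the libraries for HA-H3.3 and anti-MacroH2A2, 121, 121, 125 and 132 in HA-Macro ES cells and 104, 91 and 169 in MEFs. Vmn2r5, with 18.4% of its words occurring once, had 10, 9, 8 and 19 in the former 4 and 51 to 104 in the HA-Macro libraries.

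Genes that work with the receptors were measured at their promoters, from a list of 24 of which 23 were found. The 10 signalling genes and regulators (such as Trpc2, the vomeronasal cation channel, the G protein subunits Gnai2 and Gnao1, and Omp, a marker of mature olfactory neurons) were pooled. Their promoters had 2.58 and 3.45 times the autosomal density in HA-H3.3 ES 3 and 6 h, 2.35 and 1.71 times in anti-MacroH2A2 ES and MEF, and 1.03 times with no Dox. In HA-Macro ES cells they had 1.88, 1.66 and 1.59 times at 3, 6 and 12 h, and in MEFs 1.72, 2.04 and 1.74 times. These folds are against all autosomal sequence, and promoters in general also lie above it. Promoters of other protein-coding genes had a normalised density of 1415 and 2146 in HA-H3.3 ES 3 and 6 h, where the autosomes had 477 and 479.8, and of 1079 in anti-MacroH2A2 ES, where the autosomes had 475. No excess of the pool over ordinary promoters is read from these values. The pool was uneven. In HA-Macro MEF 12 h, with genes named after their values were seen, Omp, Ano1, Ano2 and Lhx2 had 37, 38, 25 and 36 promoter intervals, where the autosomal mean gives 9.95. Trpc2, Gnai2, Gnao1, Gng8, Meis2 and Bcl11b had 4, 6, 9, 5, 4 and 7, each below its autosomal mean. Gnai2, used in many cell types, had 6 and 35 promoter intervals in HA-H3.3 3 and 6 h, where the autosomal mean gives 3.69 and 6.12. The 13 formyl peptide receptor (Fpr-rs) and H2-M genes of vomeronasal neurons were at 1.01 and 0.463 times in HA-H3.3 3 and 6 h, 1.13 and 0.810 times in anti-MacroH2A2 ES and MEF, 1.17 times with no Dox, 0.692 to 0.933 times in induced HA-Macro ES cells and 0.473 to 0.691 times in HA-Macro MEFs.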

How the data were processed

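ChIP-Seq libraries from ES cells and MEFs, 1 for each of 11 conditions, were analysed. The authors extended reads aligned to mm9 with Bowtie 1.0 and deposited them as genomic intervals (chromosome, first and last base), the only values used here. Their methods give 1 mismatch, a random choice among several locations and extension to 150 bp. The 4 libraries for HA-H3.3 and anti-MacroH2A2 depart from this, with intervals of 400 bp and few at repeated positions. Read length is not given in the sources used here. Files held 6488112 to 20541627 intervals, of which 0.462% to 6.00% repeated another and were dropped, leaving 6448310 to 19869559 distinct intervals.

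Midpoints of distinct intervals were counted in gene bodies, promoters (600 bp on each side of a start), clusters and flanks of the NCBIM37 (mm9) genome with Python 3.11.15, numpy 2.4.6, numba 0.67.0, pandas 2.3.3 and scipy 1.17.1. Intervals at 95% are exact binomial or Poisson, or a normal approximation for differences. Scripts were tested on simulated data. Over all positions every known base was used. Positions with both ends occurring once, planned as an alternative, lead the comparisons after the data were seen. Alternative flanks, joining distances, windows and references were tried. Named genes were the 3 highest and 3 lowest of each family, the receptors with known ligands and family C. The members, lists and rules were chosen with earlier results of these data known. Among other Vmn1r and Vmn2r symbols, 106 annotated pseudogenes were left out.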

Additional observations from a re-analysis of the deposited data

How the results depend on the processing

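All log2 ratios of clusters to flanks outside the no-Dox library stayed below 0 under the 17 alternatives, 8 of them chosen after seeing the data, but their size did not hold, and the cause was not tested. For anti-MacroH2A2 ES against the GC expectation with both ends occurring once, the interval held 0 (-0.0093, -0.029 to 0.0099). Without the chromosome 3 cluster as well, a setting outside the 17, this value was 0.02. Depth limits single Vmn1r genes, and the repeated arrays cannot be read in the libraries for HA-H3.3 and anti-MacroH2A2. In the HA-Macro libraries the values at these arrays do not tell copies apart. No paired analysis was possible because each condition has a single library.

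Ratios follow for HA-H3.3 ES 6 h, anti-MacroH2A2 ES and anti-MacroH2A2 MEF in that order, with the reported -1.42, -0.77 and -0.69 over all positions. They were -1.38, -0.73 and -0.67 without the 240 tiles of highest no-Dox density, -1.10, -0.53 and -0.46 with flanks of 200 kb, and -1.69, -1.01 and -0.91 with flanks of 1 Mb. Joining genes under 50 kb apart gave -1.09, -0.46 and -0.37. Leaving out the largest cluster (Vmn1r100 to Vmn1r132) gave -1.31, -0.67 and -0.58, the median over clusters of 100 kb or more -0.91, -0.47 and -0.41, and each cluster against its own flanks -1.21, -0.52 and -0.48. With the GC expectation in place of flanks, HA-H3.3 had -0.94 and anti-MacroH2A2 MEF -1.02.

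With both ends occurring once the ratios were -1.13, -0.40 and -0.31. On those positions the median over the measured clusters gave -0.72, -0.083 and -0.12, own flanks -0.88, -0.21 and -0.16, and the GC expectation -0.21, -0.0093 and -0.28. Leaving out 5 kb around starts gave -0.89, -0.34 and -0.30, and leaving out the chromosome 3 cluster -1.17, -0.41 and -0.32. Flanks of 200 kb gave -0.92, -0.27 and -0.20, and flanks of 1 Mb -1.26, -0.51 and -0.41.

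The 12 h minus 3 h difference in HA-Macro ES cells, 0.06 over all positions, was 0.083 with flanks of 200 kb, 0.088 with flanks of 1 Mb and 0.077 with genes under 50 kb apart joined. With both ends occurring once it was 0.10, and there it was 0.18 (median over clusters), 0.11 (own flanks), 0.10 (GC expectation), 0.094 (without chromosome 3), 0.055 (starts left out), 0.13 (flanks of 200 kb) and 0.13 (flanks of 1 Mb). In HA-Macro MEFs, -0.13 over all positions, it was -0.10 with flanks of 200 kb and -0.18 with both ends occurring once. There it was -0.18 (median), -0.16 (own flanks), -0.17 (starts left out), -0.19 (without chromosome 3), -0.16 (200 kb) and -0.18 (1 Mb).

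The 6 h minus 3 h difference in HA-H3.3 ES cells, -0.51 over all positions, lay between -0.61 (both ends occurring once, flanks of 1 Mb) and -0.15 (GC expectation over all positions and with both ends occurring once).

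Member promoters over the rest of the clusters in anti-MacroH2A2 ES, 0.39 over all positions, were at 0.25 with genes under 50 kb apart joined, at 0.12 with both ends occurring once, and there at 0.11 and 0.12 with windows of 300 bp and 1 kb.

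The Vmn1r minus Vmn2r difference, outside the count that follows, also changed sign for anti-MacroH2A2. It was -0.35 (ES) and -0.43 (MEF) over all positions, and 0.10 and 0.04 with both ends occurring once. Among the results put through the alternatives, signs changed in 3. The no-Dox ratio, -0.10 over all positions, was 0.00037 as the median over clusters and 0.0076 against the GC expectation with both ends occurring once. Anti-MacroH2A2 MEF minus ES, 0.08, was -0.012 as the median over clusters and -0.27 against the GC expectation over all positions and with both ends occurring once. HA-Macro MEF minus ES at 3 h, 0.09, was -0.36 and -0.47 against the same expectation, and with both ends occurring once it was -0.060 with starts left out and -0.042 with flanks of 1 Mb.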
